A study of Prunus dulcis with 36 samples.

Results

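The unigenes described here were expressed in abnormal almond fruits at 12 days after flowering (DAF), were low in abnormal fruits at 17 DAF and stood high again at 22 DAF. They were chosen from the measured values themselves. A unigene, the representative sequence that an assembly without a genome gives for a gene, was a member when its mean over the 12 groups was at least 10 FPKM (fragments mapped per kilobase of transcript, scaled to the size of the library) and its log2(FPKM + 1) in abnormal fruits at 17 DAF lay more than 2 below that of abnormal fruits at both 12 and 22 DAF. These conditions were met by 217 unigenes, of which 1 was left out because the study's text names it by its ID. The 216 members made up 9.35% of the 2309 unigenes whose mean reached 10 FPKM and 2.49% of the 8676 listed unigenes. The size of the trough was therefore fixed by the choice and is no finding, whereas the course of the same unigenes in normal fruits, and their levels after 22 DAF, entered the choice only through the mean.

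The samples were whole fruitlets of the almond cultivar 'ZhiPi' (*Prunus dulcis*), grown on orchard trees without treatment, at 12, 17, 22, 27, 32 and 37 DAF. Abnormal fruits were atrophied fruits judged likely to drop, and normal fruits were taken from the same branches. Each of the 12 groups had 3 samples, described by the study as biological replicates of pooled, chopped fruits, and whether each sample was a separate library was not settled. The values are the authors' mean FPKM of each group, so no spread between samples is known and no difference below carries a test. Mixed fruits hold several tissues, and fewer cells of a type cannot be told apart from less RNA per cell. Each of the 8676 listed unigenes had some group that was 1 or more away from normal fruits at 12 DAF on the log2(FPKM + 1) scale, so shares among them hold for this selection and not for the whole assembly.

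Young almond fruits consist of a growing ovary wall, the later hull and shell, around a seed in which endosperm and embryo form after fertilization. Many fruitlets stop growing and are shed, and shedding takes place at an abscission zone where cell walls are dissolved. Growing fruit tissue needs a steady supply of ribosomes, of imported mitochondrial proteins and of secreted proteins of the cell wall and cuticle, and members with a name from each of these groups are described below.

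Over the 6 stages in order, the median member had 32.3, 2.80, 33.4, 16.8, 18.8 and 23.3 FPKM in abnormal fruits, against 43.4, 43.2, 37.5, 30.4, 24.8 and 28.7 FPKM in normal fruits. The minimum mean and the low level in abnormal fruits at 17 DAF were set by the rule. The normal median showed no such drop at that stage. Added up, the members' FPKM in abnormal fruits took 8.59, 0.613, 8.05, 2.45, 2.97 and 3.44% of their columns from 12 to 37 DAF, against 10.3, 11.4, 6.64, 4.27, 3.78 and 4.04% in normal fruits. The smaller of the 2 differences that chose a member, its trough depth, ran from 2.01 to 7.13 on the log2 scale, with a median of 2.74 and quartiles of 2.30 and 3.30. In abnormal fruits at 17 DAF, 14 members were listed at 0, 39 lay above 0 but under 1 FPKM and 163 had 1 FPKM or more. For the 14 at 0 the depth is set by the added 1 and is no measure of a ratio.

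**Figure D1:**
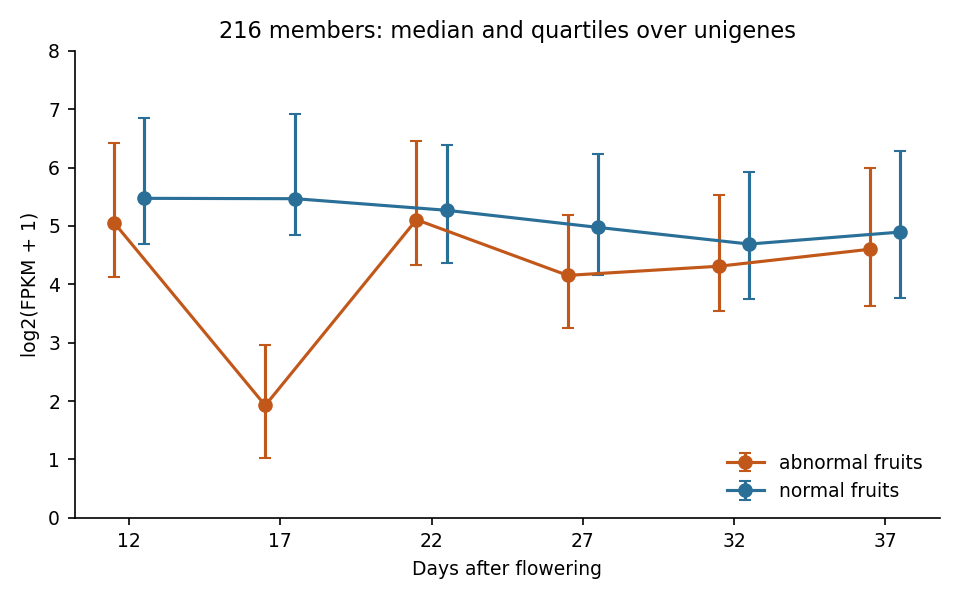
Median log2(FPKM + 1) of the 216 members (points) with the lower and upper quartiles over unigenes (bars) against days after flowering, in abnormal fruits (orange) and normal fruits (blue). The abnormal median drops to 2.80 FPKM at 17 DAF, whereas the normal median at that stage is 43.2 FPKM; the bars show spread between unigenes and not between samples.

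Near the threshold the depth of the dip in abnormal fruits was alike on both sides. DN23705_c0_g1 (depth 2.01) had 14.1, 2.56 and 13.3 FPKM in abnormal fruits at 12, 17 and 22 DAF, and DN21338_c0_g1 (depth 1.99), which was not a member, had 49.4, 10.95 and 46.6 FPKM. The next members inside were DN22569_c0_g2 (2.01) and DN19271_c0_g1 (2.02), and the next unigenes outside were DN19582_c0_g1 and DN17505_c0_g1 (both 1.99). The values thus ran on across the threshold without a gap.

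Over the 2309 unigenes, abnormal fruits at 17 DAF lay farther from their nearest group than any other of the 12 groups did. The mean size of their log2 difference from that group, abnormal fruits at 27 DAF, was 0.990. The other 11 groups had distances of 0.383 to 0.733 from their nearest group, and that of abnormal fruits at 22 DAF was 0.564, from normal fruits at 22 DAF. Among the members, abnormal fruits at 17 DAF were kept away from those at 12 and 22 DAF by the rule. Of the groups the rule left free, abnormal fruits at 27 DAF (2.19), 32 DAF (2.41) and 37 DAF (2.63) were nearest to them, and normal fruits at 17 DAF were farthest (3.75). Abnormal fruits at 22 DAF lay at nearly the same distance from abnormal fruits at 12 DAF (0.617) and from normal fruits at 22, 12 and 17 DAF (0.620, 0.630 and 0.641).

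Because all that follows takes the groups as labelled, the values were also read with the labels of abnormal fruits at 17 and 22 DAF exchanged, a reading chosen after the data had been seen. Then 106 of the 216 members lay more than 2 below both neighbouring stages (6.24% of the 2309 unigenes did), and 184 lay more than 1 below both (19.1%). The rule had already set 1 of these neighbours more than 2 higher in every member, so the counts are a description. Against normal fruits the low group would be compared with 22 DAF, where it was lower by more than 1 for 212 members (33.3% of the 2309), with a median of -3.06. The high group would be compared with normal fruits at 17 DAF, where it was lower for 23 members (3.07%) and higher for 8 (14.4%), with a median of -0.53. The stage given to the low group is that of its label.

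The same conditions were applied to the other inner stages among the 2309 unigenes. In abnormal fruits they found 217, 98, 16 and 18 troughs at 17, 22, 27 and 32 DAF, and 107, 58, 63 and 40 peaks of the same size. In normal fruits they found 23, 4, 16 and 17 troughs and 7, 27, 44 and 35 peaks at these stages. A trough of this size was counted most often in abnormal fruits at 17 DAF, where peaks were counted less than troughs. The 217 troughs there are those that the rule chose from these same values, so this order is a description. Counts at neighbouring stages share columns and are not independent.

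At 17 DAF, 214 of the 216 members had a log2(FPKM + 1) more than 1 lower in abnormal than in normal fruits, where 32.6% of the 2309 unigenes were. No member was higher, where 29.9% of the 2309 were. The rule used the abnormal value of this comparison, so the count is given only as a description. The median difference was -3.68, with quartiles of -4.39 and -3.01, beside a median of 0 over the 2309 unigenes. The normal value at this stage entered the rule only through the mean, and the median member stood at 43.2 FPKM there.

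The 2 members that did not differ by more than 1 at 17 DAF were low in both fruit types there. DN26918_c2_g1 had 7.09, 0.373 and 8.39 FPKM in abnormal fruits at 12, 17 and 22 DAF, against 2.49, 0.774 and 29.4 FPKM in normal fruits. DN4678_c0_g1, named after its values were seen, had 62.8, 8.46 and 63.9 FPKM in abnormal fruits and 19.8, 10.98 and 66.8 FPKM in normal fruits at these stages. Their low point at 17 DAF was shared, at different levels of the neighbouring stages.

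The rule chose low values in abnormal fruits at 17 DAF, so their place among the groups is given as a description. They held the lowest of the 12 values for 203 members (94.0%), as they did for 29.7% of the 2309 unigenes. They lay more than 1 below each of the other 11 groups for 164 members (75.9%, beside 11.5% of the 2309) and more than 1 below each of the 6 normal groups for 186 (86.1%, against 17.5%). The remaining 13 members had their lowest value at 27, 32 or 37 DAF, 7 of them in abnormal and 6 in normal fruits. The normal groups were not used by the rule except through the mean.

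The abnormal values at 12 and 22 DAF had to be high for a unigene to be a member, so the counts at these stages are shaped by the choice. At 12 DAF, 61 members were lower by more than 1 in abnormal fruits (19.3% of the 2309 were) and 14 were higher (19.7%), with a median difference of -0.59. At 22 DAF, 12 were lower (8.19%) and 20 were higher (3.33%), with a median of -0.03, beside -0.12 over the 2309. Median-of-ratios scaling, which sets groups equal at the median unigene, chose 196 members, of which 8 were lower and 36 higher at 22 DAF. Of all unigenes with the minimum mean, 4.47% were lower with this scaling. The median difference was then 0.27 for the members and 0.10 for all these unigenes.

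At 27 DAF, 95 of the 216 members (44.0%) were more than 1 lower in abnormal fruits, beside 10.7% of the 2309 unigenes, and 7 were higher (4.11%). The median difference was -0.94 against -0.15 over the 2309. This comparison shares no column with the trough condition, and it depends on the scaling. The median-of-ratios factor set abnormal against normal fruits at 27 DAF 0.29 lower on the log2 scale as deposited (0.18 at 17 DAF and 0.28 at 22 DAF), and with it the share lower at 27 DAF was 22.4% of the members chosen on those values, beside 4.78% of all unigenes with the minimum mean. With equal column totals it was 25.3%, beside 6.50%. Many members lie near a difference of 1, and the median of the members minus that of all unigenes moved less, being -0.78 as deposited, -0.76 with equal totals and -0.72 with median of ratios.

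At 32 DAF, 26 members were lower (4.89% of the 2309 were) and 6 higher (3.90%), with a median of -0.38. At 37 DAF, 21 were lower (2.69%) and 6 higher (3.03%), with a median of -0.09. Of the 216 members, 88 were lower at none of the 3 late stages, 114 at 1 of them, 14 at 2 and 0 at all 3. Counted past 1 as deposited, most members lower at a late stage were thus lower at only 1 of them. The same split was not counted over the 2309, so it describes the members only. It also depends on the scaling through the share lower at 27 DAF. The shares lower at 32 and 37 DAF, 12.0 and 9.72%, also lay above those of the 2309. With median of ratios, 44, 26 and 18 of 196 members were lower at 27, 32 and 37 DAF, and 7 were higher at each. Of all unigenes with the minimum mean, 4.78, 5.21 and 2.50% were lower at these stages.

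**Figure D2:**
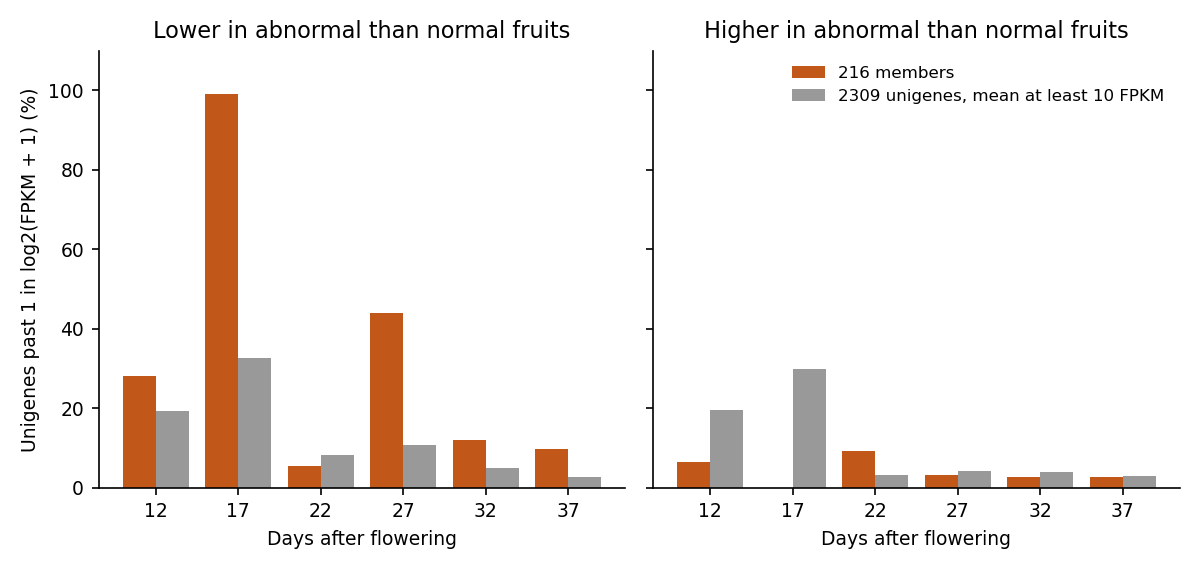
Percent of unigenes whose log2(FPKM + 1) was more than 1 lower (left) or higher (right) in abnormal than in normal fruits at each stage, for the 216 members (orange) and the 2309 unigenes whose mean reached 10 FPKM (grey). The 17 DAF bars follow from the choice of the members; at 27 DAF 44.0% of the members and 10.7% of the 2309 were lower.

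After 22 DAF the members did not keep the level they had regained in abnormal fruits. At 27 DAF, 121 members lay more than 1 below their level at 22 DAF (11.1% of the 2309 were) and 3 were higher (26.7%), with a median of -1.07 beside 0.37 over the 2309. The column at 22 DAF was part of the rule, which favours high values there. At 27, 32 and 37 DAF, 184, 197 and 196 members were more than 1 above their level at 17 DAF (28.9, 26.6 and 34.7% of the 2309 were). The rule had set the level at 17 DAF low, so these counts are a description. A second low point, more than 1 below both 22 and 32 DAF, was found at 27 DAF for 14 members (2.17% of the 2309). The depth of the first trough had a median of 2.87 in the 95 members that were lower than normal fruits at 27 DAF and of 2.69 in the other 121.

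In normal fruits, 8 members lay more than 1 lower at 17 DAF than at 12 DAF (7.88% of the 2309) and 19 lay higher (6.76%). At 22 against 17 DAF, 62 were lower (7.41%) and 18 higher (20.2%), with a median of -0.52 beside 0.26 over the 2309. With median-of-ratios scaling, 92 of the 196 members chosen on those values were lower and 7 higher. Of all unigenes with the minimum mean, 13.6% were lower with this scaling. The normal fruit thus held the members level between 12 and 17 DAF and had less of many of them from 22 DAF on.

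Set against the first stage of normal fruits, the last stage lay more than 1 lower for 90 members (13.3% of the 2309), more than 1 higher for 21 (33.3%) and within 1 for 105. The 90 had abnormal medians of 38.0, 2.40, 40.3, 12.7, 13.2 and 12.9 FPKM, against normal medians of 80.8, 59.6, 31.4, 21.7, 17.2 and 12.0 FPKM, and were most abundant in normal fruits at 12 DAF. The 105 members within 1 had abnormal medians of 30.1, 3.45, 28.6, 18.5, 22.3 and 30.7 FPKM and normal medians of 39.4, 39.7, 36.5, 38.5, 27.4 and 35.0 FPKM. The 21 had abnormal medians of 17.1, 0.957, 32.5, 28.5, 43.7 and 54.2 FPKM, against 19.8, 22.2, 59.96, 58.4, 60.1 and 84.9 FPKM in normal fruits. The rule gave every member of the 3 courses a trough deeper than 2. Median depths were 3.09, 2.50 and 2.75 in members lower, within 1 and higher at 37 DAF in normal fruits. Members lower than normal fruits at 27 DAF were 26 of the 90 (28.9%), 58 of the 105 (55.2%) and 11 of the 21 (52.4%).

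**Figure D3:**
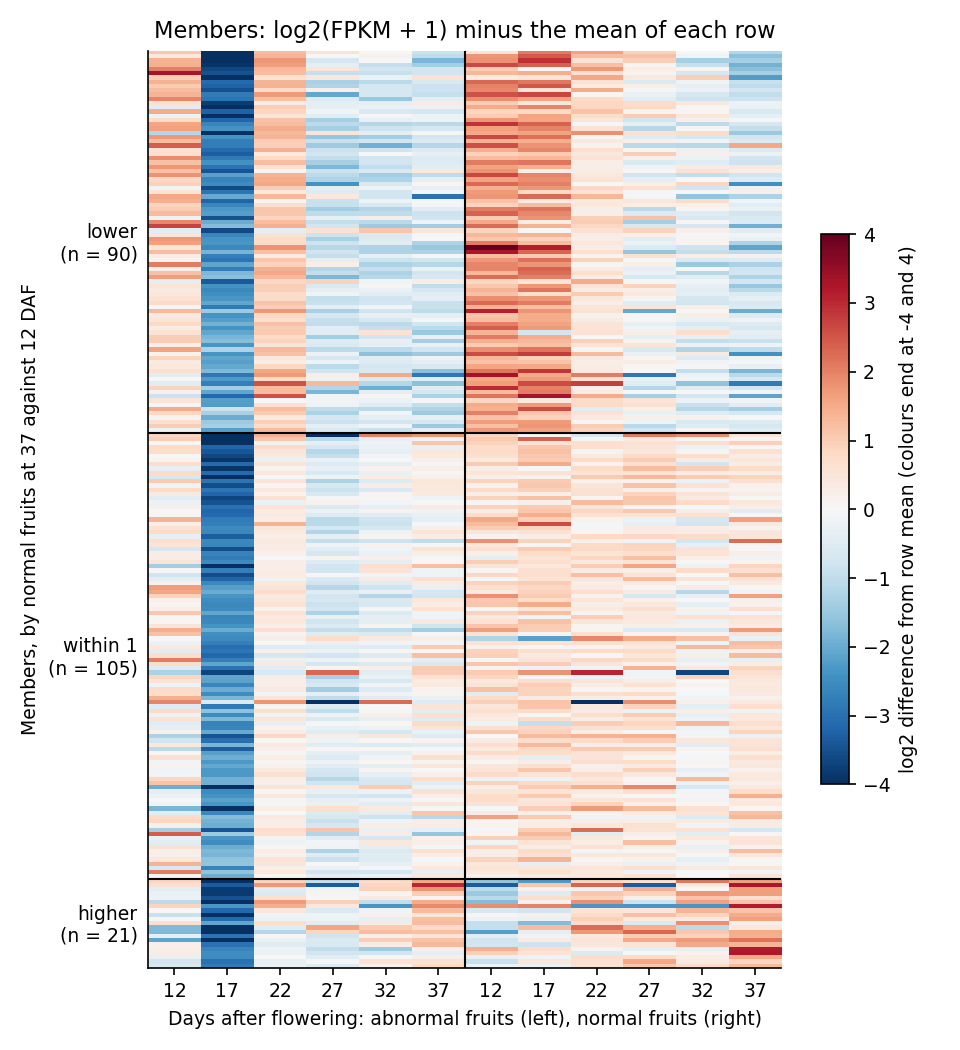
Log2(FPKM + 1) minus the mean of each row for the 216 members (rows) in abnormal fruits (left 6 columns) and normal fruits (right 6 columns) from 12 to 37 DAF, with rows grouped by whether normal fruits at 37 DAF were lower than (90), within 1 of (105) or higher than (21) those at 12 DAF and ordered by trough depth within each group. The dark column is abnormal fruits at 17 DAF, and the upper group pales towards 37 DAF in normal fruits.

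A dip at 17 DAF of more than 1 against both 12 and 22 DAF was found in normal fruits for 2 members (3.94% of the 2309), and a peak of that size for 6 (1.78%). The largest dip was that of DN22285_c1_g1, with 39.6, 5.50 and 55.8 FPKM in abnormal fruits at 12, 17 and 22 DAF and 69.1, 15.3 and 39.4 FPKM in normal fruits. The other was that of DN14733_c0_g1, described below. At the opposite end, DN26722_c2_g3 had 205, 24.7 and 442 FPKM in abnormal fruits and 415, 1043 and 162 FPKM in normal fruits, and so ran in opposite directions in the 2 fruit types. DN26064_c1_g2 and DN27626_c1_g1 did the same, with 0.311 and 3.61 FPKM in abnormal fruits at 17 DAF, against 148 and 50.0 FPKM in normal fruits.

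The deepest trough among members above 0 at 17 DAF was that of DN26450_c5_g1 (depth 6.06), which had 419, 5.29, 823, 326, 364 and 160 FPKM in abnormal fruits over the 6 stages. In normal fruits it had 1095, 1790, 755, 722, 283 and 102 FPKM. In normal fruits its level was highest at 17 DAF and then lower at every later stage, and in abnormal fruits the level at 17 DAF was the lowest. DN21800_c0_g1 (depth 5.64) had 117, 1.36, 153, 27.0, 44.2 and 11.8 FPKM in abnormal fruits, against 159, 339, 66.1, 89.0, 17.0 and 16.7 FPKM in normal fruits. DN25788_c3_g1 (5.35) had 73.4, 0.825, 86.0, 20.2, 13.3 and 9.61 FPKM in abnormal fruits, against 169, 144, 62.8, 27.4, 13.6 and 6.37 FPKM in normal fruits. These 3 members belonged to the early course, with normal fruits more than 1 lower at the last stage than at the first.

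DN17144_c0_g1 (depth 5.42) had a different normal course. It had 166, 2.91, 172, 48.6, 156 and 274 FPKM in abnormal fruits, against 31.0, 18.2, 167, 146, 404 and 291 FPKM in normal fruits. At 12 DAF it was higher in abnormal fruits by 2.39 on the log2 scale, and at 17 DAF it differed by -2.30. Its level was already high in abnormal fruits before the trough, whereas in normal fruits it was high only from 22 DAF.

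The member with the highest mean, DN20585_c0_g1, had 157, 32.0, 1693, 261, 300 and 119 FPKM in abnormal fruits, against 1266, 2865, 802, 114, 174 and 66.2 FPKM in normal fruits. It was lower in abnormal fruits at 12 DAF (-3.01) and 17 DAF (-6.44) and higher at 22 DAF (1.08) and 27 DAF (1.19). The next highest after DN26450_c5_g1 had shallow troughs from which much expression remained at 17 DAF. DN20816_c0_g2 had 103 FPKM there, against 811 FPKM in normal fruits. DN18753_c0_g1 had 79.1 FPKM, against 504 FPKM, and DN25390_c1_g1 had 96.3 FPKM, against 502 FPKM. For each of these 3, abnormal and normal fruits at 12 DAF differed by less than 0.5 on the log2 scale.

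Differences summed over the late stages were compared among members above 0 in all 6 late groups, which leaves out larger sums that rest on a listed 0. The 3 lowest sums among them came largely from normal fruits at 37 DAF. DN21905_c0_g1, DN23247_c6_g4 and DN25969_c0_g2 had 7.57, 7.03 and 9.82 FPKM in abnormal fruits at 37 DAF, against 100, 64.3 and 102 FPKM in normal fruits. In abnormal fruits at 32 DAF they had 5.45, 1.67 and 11.4 FPKM, against 11.2, 4.87 and 11.9 FPKM in normal fruits, so that their high level appeared in normal fruits at 37 DAF. In the other direction, beside DN20585_c0_g1, DN23704_c3_g1 had 63.6, 43.7 and 37.2 FPKM in abnormal fruits at 27, 32 and 37 DAF, against 58.4, 9.46 and 27.9 FPKM in normal fruits. DN27217_c1_g6 had 27.7, 12.5 and 17.3 FPKM in abnormal fruits, against 13.3, 12.4 and 8.07 FPKM in normal fruits.

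Of the 14 members listed at 0 in abnormal fruits at 17 DAF, DN25763_c2_g1 and DN19535_c0_g1 had the highest means and were picked out for this after their values were seen. DN25763_c2_g1 had 139, 0, 153, 96.3, 66.5 and 35.5 FPKM in abnormal fruits, against 95.5, 278, 199, 125, 66.4 and 28.0 FPKM in normal fruits. DN19535_c0_g1 was listed at 0 at 17 and at 27 DAF in abnormal fruits and had 69.4, 102, 154 and 134 FPKM there at 12, 22, 32 and 37 DAF, against 70.9, 40.4, 23.5, 162, 141 and 54.3 FPKM over the 6 stages in normal fruits. These zeros are group means as deposited, with an unknown number of reads behind them. Another member, DN26509_c0_g2, was the only one more than 1 below its 17 DAF level at 27 DAF in abnormal fruits (4.24% of the 2309 were), with 17.5 FPKM at 17 DAF and a listed 0 at 27 DAF, and it was listed at 0 in normal fruits at 22 DAF as well (named after its values were seen).

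Names were known for 18 of the 216 members, from the parts of the annotation tables used here, which name 740 of the listed unigenes and 168 of the 2309. The closest database entry of all 18 came from the genus *Prunus*. Of the 168, 65 were higher and 58 lower by more than 1 in abnormal fruits at 17 DAF. The groups below therefore describe single unigenes, and 198 members have no name here.

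In protein synthesis, the named member was DN17803_c0_g1, annotated as 60S ribosomal protein L17-2, a component of the large ribosomal subunit. It had 124, 6.16, 107, 33.6, 60.6 and 101 FPKM in abnormal fruits from 12 to 37 DAF, against 133, 170, 83.8, 103, 82.0 and 115 FPKM in normal fruits. The difference was -4.58 at 17 DAF and -1.59 at 27 DAF, and under 0.5 in size at the other stages. The 3 other unigenes with a ribosomal protein or domain name and a mean of at least 10 FPKM had shallower low points at 17 DAF and were not members. The one for 60S ribosomal protein L31 (DN15664_c0_g2, depth 1.47) had 356, 128, 468, 192, 214 and 375 FPKM in abnormal fruits, against 534, 683, 369, 391, 349 and 392 FPKM in normal fruits. The one for 60S acidic ribosomal protein P3-2 (DN25591_c0_g1, depth 1.64), a protein of the ribosomal stalk, had 1026, 325, 1017, 527, 604 and 955 FPKM in abnormal fruits and 1212, 1303, 804, 949, 775 and 996 FPKM in normal fruits. With DN16288_c0_g1 (depth 1.23), an uncharacterised protein counted for its ribosomal protein L31 domain, all 4 were lower in abnormal fruits at 17 DAF, with differences of -4.58, -2.40, -2.00 and -1.87 in the order in which they are named here. In the RNA and translation list as a whole, 1 of the 7 unigenes with the minimum mean was a member, and 2 were higher and 5 lower at 17 DAF.

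Among members that act in protein import, folding and turnover, DN17755_c0_g1 was annotated as the mitochondrial import inner membrane translocase subunit Tim9, a small chaperone of the space between the mitochondrial membranes. It had 8.42, 0, 18.8, 11.3, 12.7 and 10.2 FPKM in abnormal fruits, against 23.5, 27.9, 12.7, 26.7, 15.4 and 12.4 FPKM in normal fruits. The unigene for chaperone protein dnaJ 11 of the chloroplast (DN9504_c0_g1), a co-chaperone of Hsp70, had 217, 30.8, 141, 53.8, 78.1 and 199 FPKM in abnormal fruits, against 103, 104, 161, 123, 293 and 159 FPKM in normal fruits. It was higher in abnormal fruits at 12 DAF (1.06) and lower at 17, 27 and 32 DAF (-1.71, -1.18 and -1.89). DN25142_c2_g1, annotated as an F-box protein like At2g17036 of *Arabidopsis*, had 243, 35.7, 188, 54.4, 98.7 and 157 FPKM in abnormal fruits, against 320, 265, 147, 153, 140 and 194 FPKM in normal fruits. F-box proteins commonly give ubiquitin ligases their choice of target, and this unigene differed by -2.86 at 17 DAF and -1.48 at 27 DAF.

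A small family that shares the fold of lipid transfer proteins supplied 3 members. These are secreted proteins with a hydrophobic pocket that have been linked to cuticle and cell wall formation. DN14733_c0_g1, like the 14 kDa proline-rich protein DC2.15 of carrot, had 85.6, 0.714, 50.9, 28.9, 11.4 and 11.7 FPKM in abnormal fruits, against 43.2, 19.3, 70.1, 24.4, 21.8 and 5.72 FPKM in normal fruits. It dipped at 17 DAF in both fruit types, and much further in abnormal fruits (difference at 17 DAF -3.56). DN15649_c0_g1, annotated as non-specific lipid-transfer protein 4, had 126, 13.2, 171, 83.0, 117 and 306 FPKM in abnormal fruits, against 79.7, 72.7, 182, 177, 321 and 280 FPKM in normal fruits. DN12623_c0_g1, a putative lipid-binding protein like At4g00165 of *Arabidopsis*, had 4.89, 0.256, 23.2, 15.3, 17.8 and 8.56 FPKM in abnormal fruits and 12.5, 31.9, 34.8, 36.2, 11.7 and 10.7 FPKM in normal fruits.

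In normal fruits the family had no shared course, with the lipid-transfer protein 4 unigene at its highest at 32 DAF and DC2.15-like at 22 DAF. The fourth unigene of this family with the minimum mean, DN14988_c0_g1, was like the lipid-transfer protein DIR1, which takes part in systemic defence signalling in *Arabidopsis*. It was not a member, with 11.2, 9.84, 38.3, 14.0, 5.97 and 4.53 FPKM in abnormal fruits and 44.9, 71.5, 26.7, 5.97, 4.32 and 3.09 FPKM in normal fruits. All 4 were lower in abnormal fruits at 17 DAF. The family was listed after the data had been seen, and it also accounts for 3 of the 4 members in the protein folding and turnover list, through the domain name it shares with protease inhibitors.

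**Figure D4:**
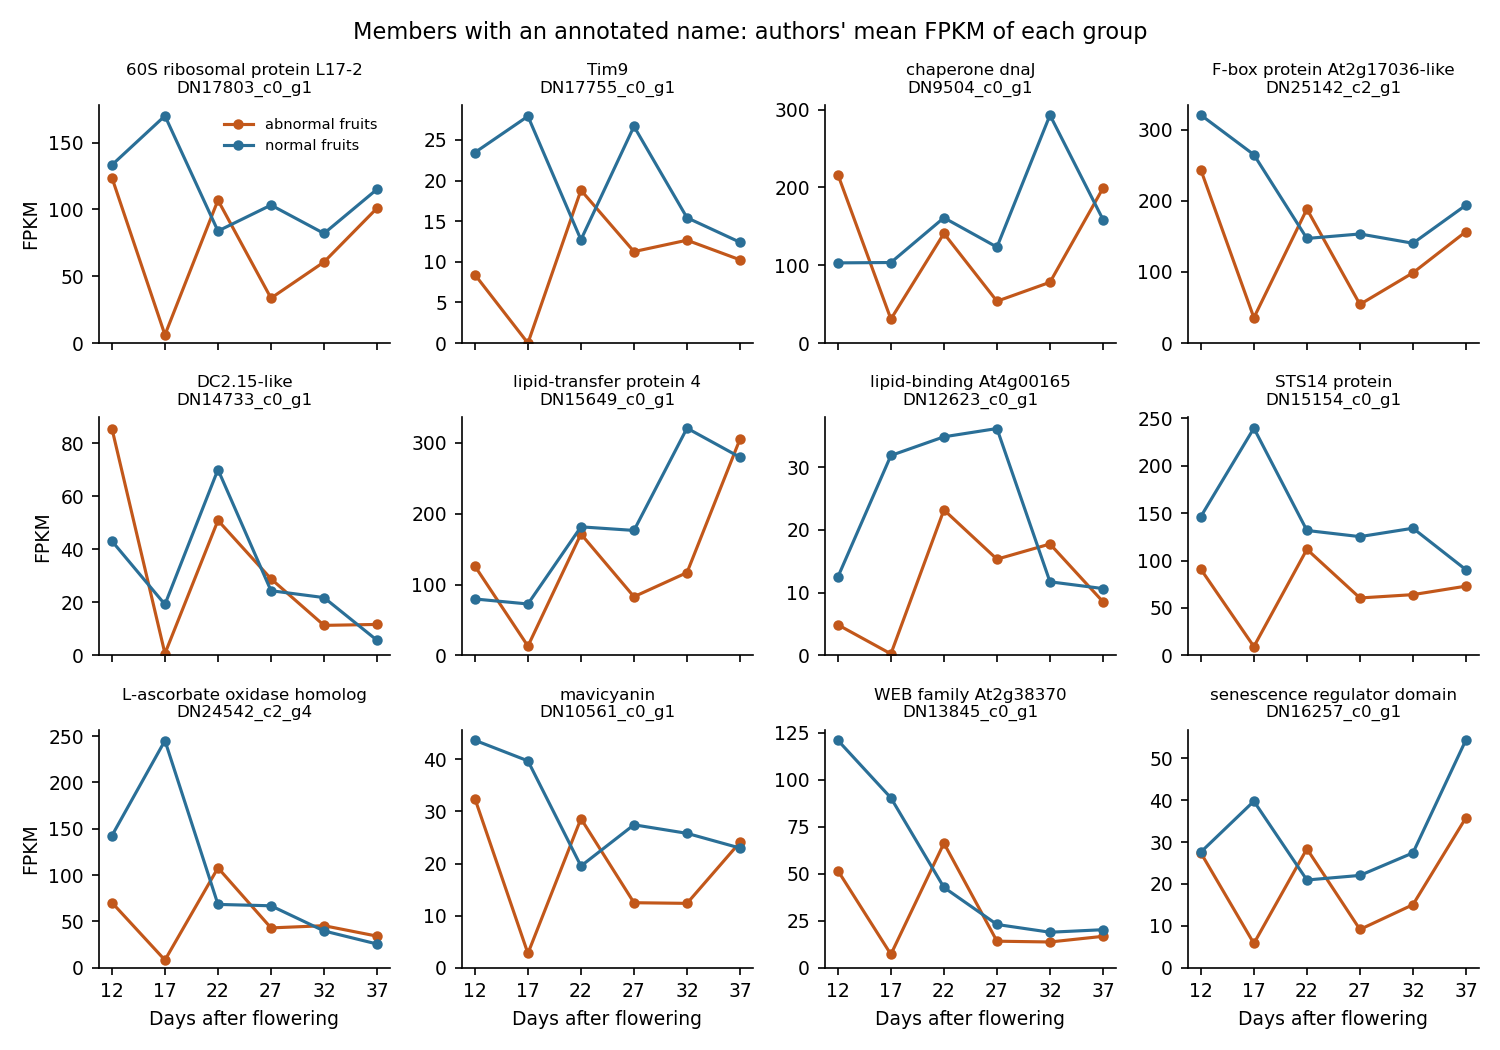
FPKM of 12 members with a name against days after flowering in abnormal fruits (orange) and normal fruits (blue), each point being the authors' mean of a group, with a separate scale from 0 in each panel. All 12 reach their lowest abnormal value at 17 DAF, where the rule set it low against 12 and 22 DAF. At 27 DAF the abnormal value of the 60S ribosomal protein L17-2 unigene is 33.6 FPKM, against 103 FPKM in normal fruits.

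Members annotated as copper proteins of the cell surface included DN24542_c2_g4, an L-ascorbate oxidase homolog of the multicopper oxidase family. It had 70.4, 8.37, 108, 43.1, 45.5 and 34.2 FPKM in abnormal fruits, against 143, 245, 68.4, 66.9, 39.8 and 25.7 FPKM in normal fruits. DN10561_c0_g1, like mavicyanin, a blue copper protein, had 32.5, 2.77, 28.6, 12.5, 12.4 and 24.1 FPKM in abnormal fruits, against 43.6, 39.7, 19.5, 27.4, 25.8 and 23.0 FPKM in normal fruits. Both were lower in abnormal fruits at 17 DAF (-4.72 and -3.43) and slightly higher at 22 DAF (0.65 and 0.53). DN15154_c0_g1, like the STS14 protein of potato, a pistil protein related to pathogenesis-related proteins, had 90.9, 9.36, 112, 60.6, 64.1 and 73.0 FPKM in abnormal fruits, against 146, 239, 132, 125, 134 and 90.3 FPKM in normal fruits.

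The remaining named members were of other kinds. DN13845_c0_g1, of the WEB family, whose studied members in *Arabidopsis* act in chloroplast movement, had 51.7, 7.18, 66.3, 14.2, 13.8 and 16.8 FPKM in abnormal fruits, against 121, 90.4, 42.8, 23.1, 18.9 and 20.3 FPKM in normal fruits. DN16257_c0_g1, which carries a senescence regulator domain, had 27.4, 5.82, 28.4, 9.15, 15.1 and 35.8 FPKM in abnormal fruits, against 27.6, 39.7, 20.9, 22.0, 27.4 and 54.4 FPKM in normal fruits. DN17212_c0_g1, with a domain of phospholipid methyltransferases, had 0.777 FPKM in abnormal fruits at 17 DAF, against 20.5 FPKM in normal fruits. The WEB family unigene followed the early course in normal fruits, and the other 2 did not.

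A further 5 named members were uncharacterised proteins. DN27790_c2_g1 had 8.46, 0, 62.7, 36.8, 8.97 and 54.2 FPKM in abnormal fruits, against 4.96, 21.1, 68.4, 9.96, 60.1 and 42.8 FPKM in normal fruits, and so changed places between the fruit types at 27 and 32 DAF. DN16150_c0_g1 had its highest levels late, with 42.7 FPKM in abnormal fruits at 37 DAF, against 69.7 FPKM in normal fruits. DN22553_c0_g2 was listed at 0 in abnormal fruits at 17 DAF, against 25.6 FPKM in normal fruits. DN15674_c0_g1 and DN16509_c0_g1 had 1.15 and 2.04 FPKM in abnormal fruits at 17 DAF, against 28.3 and 31.2 FPKM in normal fruits.

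At 27 DAF, 11 of the 18 named members (61.1%) were more than 1 lower in abnormal fruits and 1 was higher, beside 13.7% lower and 4.76% higher among the 168 named unigenes with the minimum mean. With equal totals 5 of the 18 were lower (7.14% of the 168), and with median of ratios 3 were (4.76%). As deposited, 6 of the 18 were lower at 32 DAF (4.89% of the 2309 unigenes were) and 1 was at 37 DAF (2.69%). Shares among the 168, and other scalings, were not counted for the named members at these 2 stages. The named member higher at 27 DAF was DN27790_c2_g1, and the one lower at 37 DAF was DN16509_c0_g1, with 8.18 FPKM in abnormal fruits, against 19.0 FPKM in normal fruits. No member was named in the lists for photosynthesis, hormones, chromatin and cytoskeleton, signalling kinases, transport or cell wall enzymes, which together hold few named unigenes with the minimum mean (2, 3, 5, 1, 5 and 3). Of the 5 in the transport list, 4 were higher in abnormal fruits at 17 DAF. Among transcription factor names 7 of 11 were higher and 1 was lower, this one being the Tim9 unigene, which falls in that list through the zinc finger in its domain name. In the sugar and lipid list, 6 of 10 were higher and 4 lower, and 1 was a member. In the redox list, 1 of 6 was higher and 2 were lower, and 1 was a member.

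Names that would mark other material in the samples were also counted. Seed storage and late embryogenesis names, leaving out those of lipid transfer proteins, were found for 6 listed unigenes, none of them a member. Their summed level in abnormal fruits was 739, 1183, 599, 897, 1094 and 1424 FPKM from 12 to 37 DAF, against 289, 347, 836, 1196, 1395 and 1609 FPKM in normal fruits, nearly all of it from DN24970_c1_g1, annotated as protein YLS9 with a late embryogenesis abundant domain. Without it, the other 5 summed to 12.3 FPKM in abnormal fruits at 17 DAF, against 17.8 FPKM in normal fruits. The 2 vicilin names, which mark stored seed protein, were at 0 and 0.699 FPKM in abnormal fruits at 17 DAF, against 0 for both in normal fruits. A best match outside the green plants was found for 57 listed unigenes, none of them a member, with sums of 6.83, 131, 84.2, 68.7, 111 and 94.1 FPKM in abnormal fruits, against 2.27, 1.68, 70.0, 99.2, 65.9 and 108 FPKM in normal fruits. The seed names other than YLS9 were thus low in both fruit types at 17 DAF, whereas the YLS9 unigene and the sum of matches outside the green plants were higher in abnormal fruits. The part of these in the trough was not tested.

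An assembly can divide the reads of a gene between similar sequences, so the members were also examined with the listed unigenes of the same assembly cluster (the same DN and c numbers). Of the members, 40 (18.5%) shared a cluster with another listed unigene, close to the 18.7% of the 2309 that did. These formed 38 clusters, and the summed FPKM of the cluster kept a trough deeper than 2 in 24 of them and deeper than 1 in 32. Among the sums that did not keep it were those with DN24542_c2_g4, DN20816_c0_g2 and DN23247_c6_g4, described above, with depths of 1.47, 1.23 and 1.72. Grouped by the DN number alone, 81 members formed 78 groups, and 41 of these kept a trough deeper than 2. Of the 43 other unigenes in the 38 clusters, 6 dipped by more than 1 against both neighbouring stages and 3 peaked.

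In some clusters another unigene was high in abnormal fruits at 17 DAF, where the member was low. DN25025_c0_g4 had 7.84, 0 and 8.61 FPKM in abnormal fruits at 12, 17 and 22 DAF, and its cluster mate DN25025_c0_g1 had 73.7, 423 and 46.5 FPKM. In DN23047_c0, the member g1 had 18.9, 3.49 and 25.4 FPKM, and g4 was listed at 27.0 FPKM in abnormal fruits at 17 DAF and at 0 in the other 11 groups. The sum of this cluster had no trough, with 30.5 FPKM in abnormal fruits at 17 DAF, against 35.1 FPKM in normal fruits. In DN24198_c0, the member g1 was listed at 0 in abnormal fruits at 17 DAF, where g5 had 1047 FPKM, beside 889.99 and 406 FPKM at 12 and 22 DAF. Whether such sequences share reads was not tested.

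Of the clusters, 2 held a pair of members. Both members of a pair were low in abnormal fruits at 17 DAF by the rule, and their normal courses were not always alike. DN22231_c2_g3 had 40.0, 41.0 and 12.5 FPKM in normal fruits at 12, 17 and 22 DAF, and DN22231_c2_g5 had 30.5, 33.9 and 21.5 FPKM. DN23340_c6_g1 had 75.7, 58.0 and 62.95 FPKM there, whereas DN23340_c6_g2 had 138, 46.0 and 48.8 FPKM. Members of a cluster may be versions of a single gene and are not independent.

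**Figure D5:**
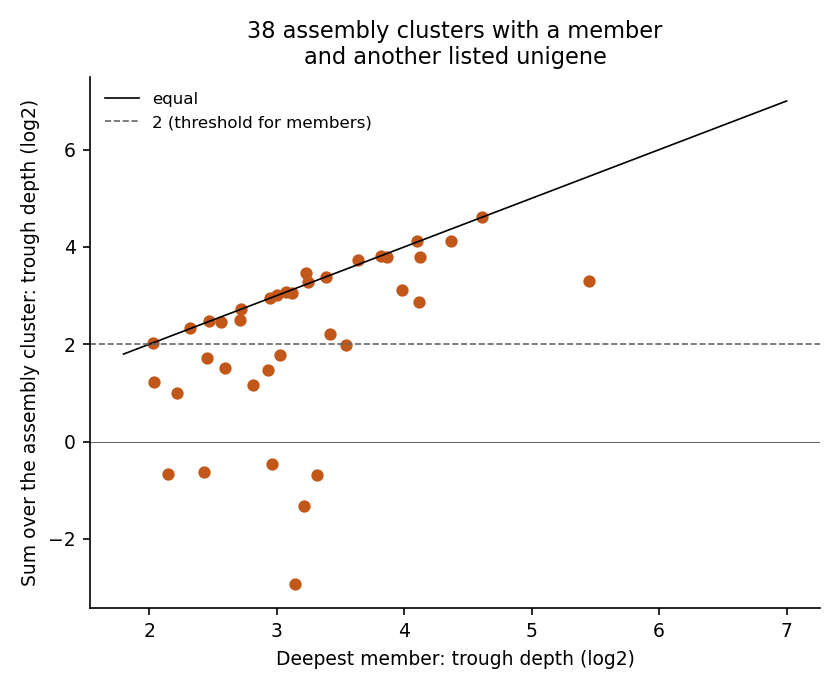
Trough depth of the deepest member (horizontal) and of the FPKM summed over the listed unigenes of its assembly cluster (vertical), both as the smaller log2(FPKM + 1) difference of abnormal fruits at 17 DAF from those at 12 and 22 DAF, for the 38 clusters with a member and another listed unigene. Points on the solid line have the same depth in the sum, and 24 of the 38 lie above 2 (dashed line). Where the other unigenes are absent or low at these stages, the sum is close to the member itself.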

How the data were processed

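After quality filtering, the authors built unigenes with Trinity, mapped the reads back with Bowtie2, counted them with RSEM and scaled the counts with DESeq2 before FPKM were derived from effective length and library size. The deposited FPKM are 1 mean per group over 3 replicates (12 columns, 36 samples, all 12 used). Reads per unigene are unknown, so no counting interval, test or standard deviation was computed. Tool versions are not given in the sources used here.

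Groups came from sample labels and column names. Differences were taken in log2(FPKM + 1), which understates changes of low unigenes, and counted past 1. Shares were read against the 2309 unigenes whose mean reached 10 FPKM. Names came from the parts of the annotation tables used here, and 0 unigene IDs were found in the RefSeq gene table, so no sequence is printed.

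The members and lists were chosen with earlier results of these data known. Unigenes named are the 5 deepest above 0, the 5 with the highest mean, all 18 with a name, 3 on each side of the threshold, 3 with the largest normal dip or peak, 3 with the largest summed late differences in each direction among members above 0 in all 6 late groups, and clusters with most members. Others are marked as chosen later. The largest normal dips were those of DN22285_c1_g1, DN14733_c0_g1 and DN26918_c2_g1.

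Alternatives were pseudocounts of 0.1 and 5, equal totals, median of ratios (over 3099 unigenes above 0 in all groups), no minimum or a mean of 20, and falls of 1 and 3. The selection of members, but not the later counting, was checked on simulated data with deep troughs planted in unigenes of high mean. Python 3.11.15, numpy 2.4.6, pandas 2.3.3 and matplotlib 3.10.9 were used.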

Additional observations from a re-analysis of the deposited data

How the results depend on the processing

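The number of members followed the threshold and the pseudocount. It was 98 with a pseudocount of 5, 493 with a fall of more than 1 and 82 with a fall of more than 3, against 216. The share of members lower in abnormal fruits at 27 DAF was 25.3% with equal totals and 22.4% with median of ratios, against 44.0%, and each scaling also chose its own members (253 and 196). The share lower at 27 than at 22 DAF in abnormal fruits was 36.5% with a fall of more than 1, against 56.0%. Over 61 pairs of a main result and a further setting, 55 values stayed within 1.5 times. Over all 141 values compared, 120 did so and 21 moved further. These were shares, counts and a distance without a sign, so they cannot show whether a direction turned. The normal group nearest to the trough was that at 32 DAF as reported. It was 37 DAF with a pseudocount of 5 or a fall of more than 3, and 27 DAF with median of ratios. The distance was compared by size alone, also where the nearest group changed. Leaving out the unigenes of the study's primer list as well, an alternative added after seeing the data, gave the same 216 members. Its values therefore could not move, and they are counted among those that stayed within 1.5 times.

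No paired analysis was possible because the deposited values are means over replicates, and for the same reason no replicate could be left out in turn. Depth behind single values is unknown, so members under 1 FPKM in abnormal fruits at 17 DAF, 39 above 0 and 14 listed at 0, have the least certain depth of trough. Differences between groups carry no measure of variation between samples.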
